A study of Mus musculus with 8 samples.

Results

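The genes described are the potassium channel genes of the mouse, taken as every protein-coding gene on an autosome of the GENCODE vM1 annotation (genome build mm9) whose symbol starts with Kcn, without the noncoding Kcnq1ot1. The rule found 94 gene models with 92 symbols among 21418 protein-coding autosomal genes. Of these, 71 had CpGs in their promoters (1 kb before to 0.5 kb after an annotated transcript start), 77 had CpGs in their bodies outside the promoters, and 86 had CpGs in either. The other 8 models had none and could not be measured: Kcne2, Kcne4, Kcnj13, Kcnk7, Kcnmb3, Kcnrg, and a further model each of Kcnb2 and Kcnh8. By family, 41 models were voltage-gated pore subunits, 15 inward-rectifier subunits, 14 K2P leak channels (with a tandem pair of pore domains per subunit), 8 calcium- or sodium-activated subunits and 16 auxiliary subunits. Families were assigned by symbol alone. The calcium- or sodium-activated family thus also holds Kcnu1, for which gating by either ion is not implied.

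Neural precursor cells (NPCs) had been differentiated from mouse embryonic stem cells of the line A2lox.cre, which descends from the male line E14 of strain 129P2/OlaHsd. The cells carried an inducible shRNA, either a non-targeting Scrambled control (shScr) or one against Tet3 (shTet3), a dioxygenase that oxidises 5-methylcytosine (5mC) to 5-hydroxymethylcytosine (5hmC). Both groups received doxycycline at 2 µg/ml for 5 days, so the control cells share the drug, the insertion and an expressed shRNA. shRNA lines were expanded as embryonic stem cell clones after selection with geneticin. The labels say neither how many clones each group holds nor whether its 2 replicates are separate differentiations. Tests below on the spread between replicates therefore measure it only for these samples. The q-values from pooled counts of single CpGs do not measure that spread. From 100 ng of genomic DNA per replicate, reduced representation libraries cut with MspI (at CCGG) were made as a pair, in which bisulphite alone (BS) leaves 5mC and 5hmC both read as C and prior oxidation (oxBS) leaves 5mC alone read as C, giving 8 libraries. Neither the knockdown of Tet3 nor markers of NPCs can be checked in methylation files.

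Potassium channels let potassium ions leave or enter the cell down their electrochemical gradient, and so set the resting potential and end the action potential. Voltage-gated subunits open on depolarisation, inward rectifiers and K2P leak channels hold the resting potential, calcium-activated channels couple it to intracellular calcium, and auxiliary subunits change the gating or trafficking of pore subunits. The set of voltage-gated channels a cell carries grows as neurons mature. CpG-rich promoters are usually unmethylated whether or not the gene is transcribed, whereas CpGs in gene bodies are usually methylated.

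Total calls per library ranged from 42516767 to 61865967 and median coverage per CpG from 43 to 54, and all 8 libraries listed the same 757812 CpGs. Over bodies of all genes shScr replicate 2 stood above shScr replicate 1 (oxBS level 52.8% against 45.1%), while the shTet3 replicates were close to each other at 38.0% and 39.0%. Counts of called CpGs in Kcn genes were therefore also made without shScr replicate 2, on the CpGs covered in the remaining 3 oxBS libraries. A level is the percent of calls at a CpG read as C, and a region's level is the unweighted mean over those of its CpGs that had 10 or more calls in each of the 4 libraries compared. A differentially methylated position (DMP) is a CpG with q below 0.01 and a difference over 10 percentage points between shTet3 and shScr, and is a hypo-DMP where shTet3 is lower and a hyper-DMP where it is higher. That test is on counts and takes no account of the spread between replicates. PCR copies are not independent molecules, so it can understate even the counting error. Neighbouring CpGs can share reads, so DMPs lying close together are not separate observations.

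Promoters of potassium channel genes carried more methylation in control NPCs than promoters in general. The median level over the 63 Kcn promoters with at least 3 covered CpGs was 10.6% in shScr oxBS, against 0.46% over all 12329 such promoters. Of the 63 promoters, 33 (52.4%) had a level of 10% or more, against 20.8% of all promoters, and 8 (12.7%) had a level over 40%, against 8.60%. Those 8 were the promoters of Kcnb2, Kcne1, Kcng4, Kcnip1, Kcnip2, Kcnk18, Kcnmb2 and Kcnn3. At the other end lay Kcnab3, a cytoplasmic beta subunit of voltage-gated channels, at 0.17% and 0% in the shScr replicates and at 0.309% and 0.418% in the shTet3 replicates. The methylated promoters were poorer in CpGs: the median ratio of observed to expected CpGs was 0.61 in Kcn promoters with a level under 10%, 0.49 at 10% or more and 0.30 over 40%. MspI fragments begin and end at CCGG, which was present in 95.7% of Kcn promoters and 85.7% of all promoters. Among Kcn genes, the median number of CCGG per kb was 5.00 where the promoter had covered CpGs and 1.33 where it had none.

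Hypo-DMPs were found in 73 of 1637 covered CpGs of Kcn promoters (4.46%), against 2.00% of all promoter CpGs. They were 71 of 1695 (4.19%) without shScr replicate 2, against 1.27%. A single CpG was a hyper-DMP (0.0611%), against 0.0539% of all. The mean oxBS level over the 1637 CpGs was 11.2% and 11.9% in shScr against 8.83% and 8.80% in shTet3. The shTet3 libraries were thus both the lower ones, by 2.77 percentage points on average (11.6% ± 0.475 against 8.81% ± 0.0161, SD, n = 2 and 2). The two-sided exact permutation p was 0.33, the smallest that 2 libraries against 2 can give. Over all promoters the levels were 4.67% and 5.53% in shScr against 3.89% and 4.02% in shTet3.

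The share of hypo-DMPs was larger at CpGs with a higher starting level. CpGs were grouped by their level in the shScr BS libraries, which the oxBS test did not use. Those libraries come from the same DNA samples as the shScr oxBS libraries, so the grouping is not independent of the test. The share of hypo-DMPs in Kcn promoters was 0.390% below a level of 10%, 7.91% from 10% to 40%, 22.4% from 40% to 70%, and 47.6% from 70% upwards (20 of 42 CpGs). The corresponding shares over all promoters were 0.133%, 8.36%, 25.1% and 34.2%. Below 10% and at 70% and more the Kcn share was the higher, and in the classes between it was slightly lower. Without shScr replicate 2 the Kcn shares were 1.12%, 10.5%, 17.6% and 11.9% (5 of 42 CpGs), against 0.200%, 6.81%, 13.6% and 14.7% over all promoters. The Kcn share of the top class was then no longer the higher. Leaving out a library also takes away reads, and the effect of that on the shares was not tested.

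The hypo-DMPs were spread over 31 promoters, of which 11 held 3 or more and 46 of the 73 between them. Of the 63 promoters with at least 3 CpGs, 27 (42.9%) held a hypo-DMP, against 19.3% of all promoters, and 36 held none. In 11 of the 63 there were 3 or more (17.5%), against 6.74% of all promoters. The number holding one was 29 without shScr replicate 2. Mean levels were lower in shTet3 at 53 promoters (84.1%, against 67.5% of all promoters) and higher at 10. In 32 (50.8%) the groups did not overlap and shTet3 was the lower, against 27.6% of all promoters, and in 27 the groups overlapped. In 4 promoters (Kcnh7, Kcnk3, Kcnk10 and Kcnab3) the order was the reverse without overlap (6.35%, against 7.15% of all promoters), with differences of 1.81 percentage points or less.

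**Figure D1:**
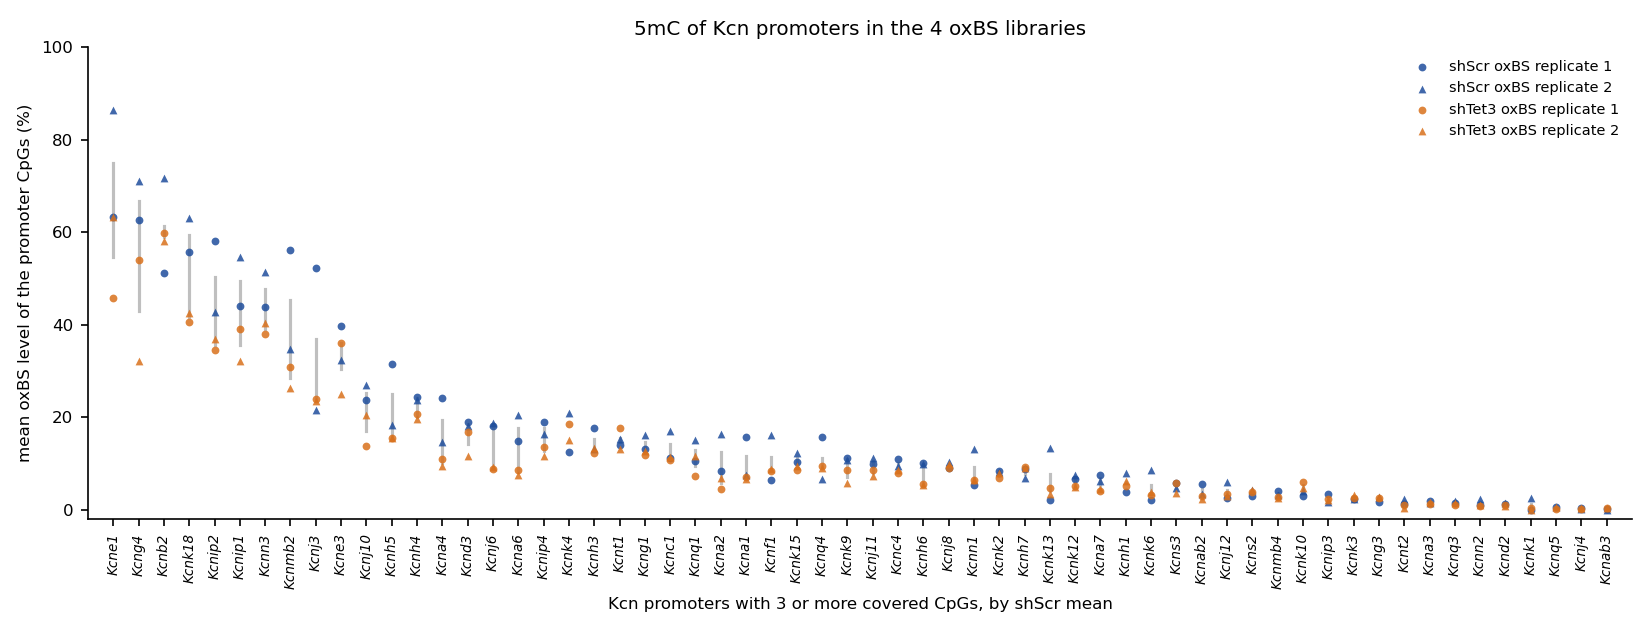
Mean oxBS level (percent) of Kcn promoters with at least 3 covered CpGs in each of the 2 shScr and 2 shTet3 libraries. Points are libraries, grey bars join the means of the groups, and the shTet3 points lie below both shScr points in 31 of the 60 promoters shown (3 genes are left out), with the wider differences among those over 40% in shScr.

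A test on the spread between replicates did not call any of these promoters. limma on the mean level of each promoter called 0 of 63 Kcn promoters at an adjusted p below 0.05, as it called 0% of all 12329. At an unadjusted p below 0.05 it found 7 Kcn promoters (11.1%), all lower in shTet3, against 6.48% of all promoters. They were Kcnj6, Kcnh6, Kcnh4, Kcnk18, Kcnk12, Kcna7 and Kcna6. The smallest adjusted p among Kcn promoters was 0.323 (limma, Benjamini-Hochberg). Likewise, an F test with overdispersion called 0 of the 1637 CpGs (smallest q 0.989), with 9 lower in shTet3 at an unadjusted p below 0.05 (0.550%, against 0.235% of all promoter CpGs). It called 0 of all promoter CpGs too. With 2 libraries a group the F test has so few degrees of freedom that a q below 0.01 was hardly within reach. Its 0 calls therefore say little about single CpGs.

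Among voltage-gated subunits, 31 of 844 promoter CpGs were hypo-DMPs (3.67%), and the mean level was 11.4% ± 0.176 in shScr and 8.89% ± 0.0956 in shTet3 (SD, n = 2 each). The promoter with the most hypo-DMPs was that of Kcnh5 (chr12:75998204-76278319, minus strand), a subunit of the ether-à-go-go group, with 6 of 28 CpGs. In 5 of them, 180 to 216 bases upstream of the start, the mean level was 50.3% in shScr replicate 1, 22.9% in shScr replicate 2, 17.4% in shTet3 replicate 1 and 20.7% in shTet3 replicate 2 (q 3.34e-05 to 0.00869). Only shScr replicate 1 stood clearly apart. The BS libraries gave the same order within shScr, 45.0% and 22.8%, with 25.4% and 23.4% in shTet3. The same unevenness was seen in Kcna4, which encodes an A-type channel that inactivates quickly. Its 3 hypo-DMPs lay 62 to 221 bases upstream of the start and averaged 37.7% and 22.0% in shScr against 14.1% and 10.8% in shTet3. Their sequences are shown because both promoters hold these hypo-DMPs in a short upstream stretch where 1 control library lay well above the other. The plus strand of mm9 is given for these and all later sequences, and capitals mark the CpGs called (chr12:76278490-76278545 and chr2:107130566-107130744).
Kcnh5: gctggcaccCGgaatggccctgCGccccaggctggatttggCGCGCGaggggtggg
Kcna4: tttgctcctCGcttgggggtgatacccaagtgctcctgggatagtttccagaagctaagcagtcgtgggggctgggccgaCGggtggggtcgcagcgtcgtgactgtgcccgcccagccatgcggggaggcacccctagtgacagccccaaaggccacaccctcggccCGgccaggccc

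Across its whole promoter, Kcnh5 averaged 31.5% and 18.2% in shScr against 15.4% and 15.5% in shTet3, a difference of −9.40 ± 5.86 percentage points (limma, SE, adjusted p = 0.919). Without shScr replicate 2, and over the CpGs covered in the other 3 libraries, the difference was −16.7, and 6 CpGs were again hypo-DMPs. In the stretches printed above, all 5 CpGs of Kcnh5 and all 3 of Kcna4 were called without it too. In both genes shScr replicate 1, the higher control, was then the only control left. Those calls therefore cannot show how far they rest on that library, but the levels bear on it. In the Kcnh5 stretch shScr replicate 2 (22.9%) lay less than 10 percentage points above either shTet3 library (17.4% and 20.7%). In the Kcna4 hypo-DMPs it stood at 22.0%, against 14.1% and 10.8%. Among the 33 Kcn promoters at 10% or more, shScr replicate 1 was the higher control in 14 (42.4%), against 27.7% of all promoters at that level. In BS it was likewise the higher in 14 of 33, against 28.0% of all. The reverse order was the rule in Kcn bodies, where shScr replicate 1 was the higher control in 4 of 66 at that level (6.06%, against 7.79% of all bodies).

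Kcnb2, which encodes a delayed rectifier of the Shab type in central neurons, had a methylated promoter. It had 5 hypo-DMPs in 13 CpGs, all in the coding exon 248 to 383 bases after the start, which averaged 69.3% and 80.5% in shScr against 56.0% and 48.6% in shTet3 (q 1.43e-05 to 0.00654). The BS libraries gave 72.2% and 80.5% against 51.8% and 47.6% there. Over the whole promoter, however, 51.2% and 71.6% in shScr overlapped with 59.7% and 58.0% in shTet3. The 5 CpGs nearest the start of Kcnb2 had a coverage of 10 to 17 and read 16.7% to 54.5% in shScr replicate 1, and with a coverage minimum of 20 the difference was −17.2 percentage points instead of −2.55. Of the 5 hypo-DMPs, 1 was called without shScr replicate 2. The stretch is shown because all its hypo-DMPs are in coding sequence (chr1:15302772-15302926).
Kcnb2: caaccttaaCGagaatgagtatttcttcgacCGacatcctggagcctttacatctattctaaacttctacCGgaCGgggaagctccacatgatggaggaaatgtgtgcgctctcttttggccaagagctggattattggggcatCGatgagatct

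Kcng4, a modifier subunit that is silent on its own and joins Shab-type channels, had 2 hypo-DMPs in 3 CpGs, at 62.6% and 70.9% in shScr against 53.9% and 32.1% in shTet3. Kcnc1, a fast-deactivating channel of fast-spiking neurons, had the most covered promoter CpGs of all Kcn genes, and 2 of its 79 were hypo-DMPs. Its levels of 11.2% and 16.9% in shScr overlapped with 10.7% and 11.3% in shTet3. Kcnh6 held no DMP in 9 CpGs, but its shScr replicates lay close together at 10.1% and 9.74%, as did its shTet3 replicates at 5.42% and 5.37% (difference −4.51 ± 0.162 SE, limma adjusted p = 0.323).

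Auxiliary subunits had the most methylated promoters of the families and the largest share of hypo-DMPs, 18 of 214 CpGs (8.41%). Their mean level was 18.8% ± 0.619 in shScr and 13.7% ± 0.285 in shTet3. Kcne1, the single-pass subunit that joins Kcnq1 in the slow delayed rectifier, had the highest promoter level of all Kcn genes, at 63.3% and 86.3% in shScr against 45.7% and 63.2% in shTet3. Although 5 of its 11 CpGs were hypo-DMPs, shTet3 replicate 2 all but met shScr replicate 1. The BS libraries separated the groups more clearly, with 70.3% and 78.2% in shScr against 62.5% and 64.0% in shTet3. At the 3 hypo-DMPs 31 to 75 bases upstream of the start the oxBS levels were 62.9% and 87.1% against 53.7% and 58.8% (q 2.01e-05 to 0.00436). No CpG of the Kcne1 promoter was a hypo-DMP without shScr replicate 2. These 3 are shown because they lie just upstream of the start of the most methylated promoter (chr16:92359735-92359798).
Kcne1: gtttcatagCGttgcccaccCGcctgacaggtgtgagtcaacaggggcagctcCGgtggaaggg

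KChIPs, calcium-binding proteins that bring A-type pore subunits to the membrane, made up 3 of the promoters described in this family. Kcnip2 had 4 hypo-DMPs in 18 CpGs and levels of 58.0% and 42.7% in shScr against 34.4% and 37.0% in shTet3. Kcnip4 had 3 in 26 CpGs, with 19.0% and 16.3% against 13.5% and 11.6%. In both, every shTet3 library lay below both controls, and in both shScr replicate 1 was the higher control. Kcnip1 had 2 hypo-DMPs and the only hyper-DMP among Kcn promoters. Its promoter as a whole was at 44.0% and 54.7% in shScr against 39.0% and 32.0% in shTet3, but in the BS libraries the levels of 31.7% and 32.3% overlapped with 29.0% and 31.9%. The hyper-DMP of Kcnip1 (chr11:33892839) read 37.5% and 57.1% in shScr against 86.6% (Wilson 95% interval 76.4% to 92.8%) and 36.7% (24.7% to 50.7%) in shTet3, so shTet3 replicate 1 alone was high. It was no DMP in BS (53.0% and 57.6% against 60.7% and 54.5%, q = 1.0).

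**Figure D2:**
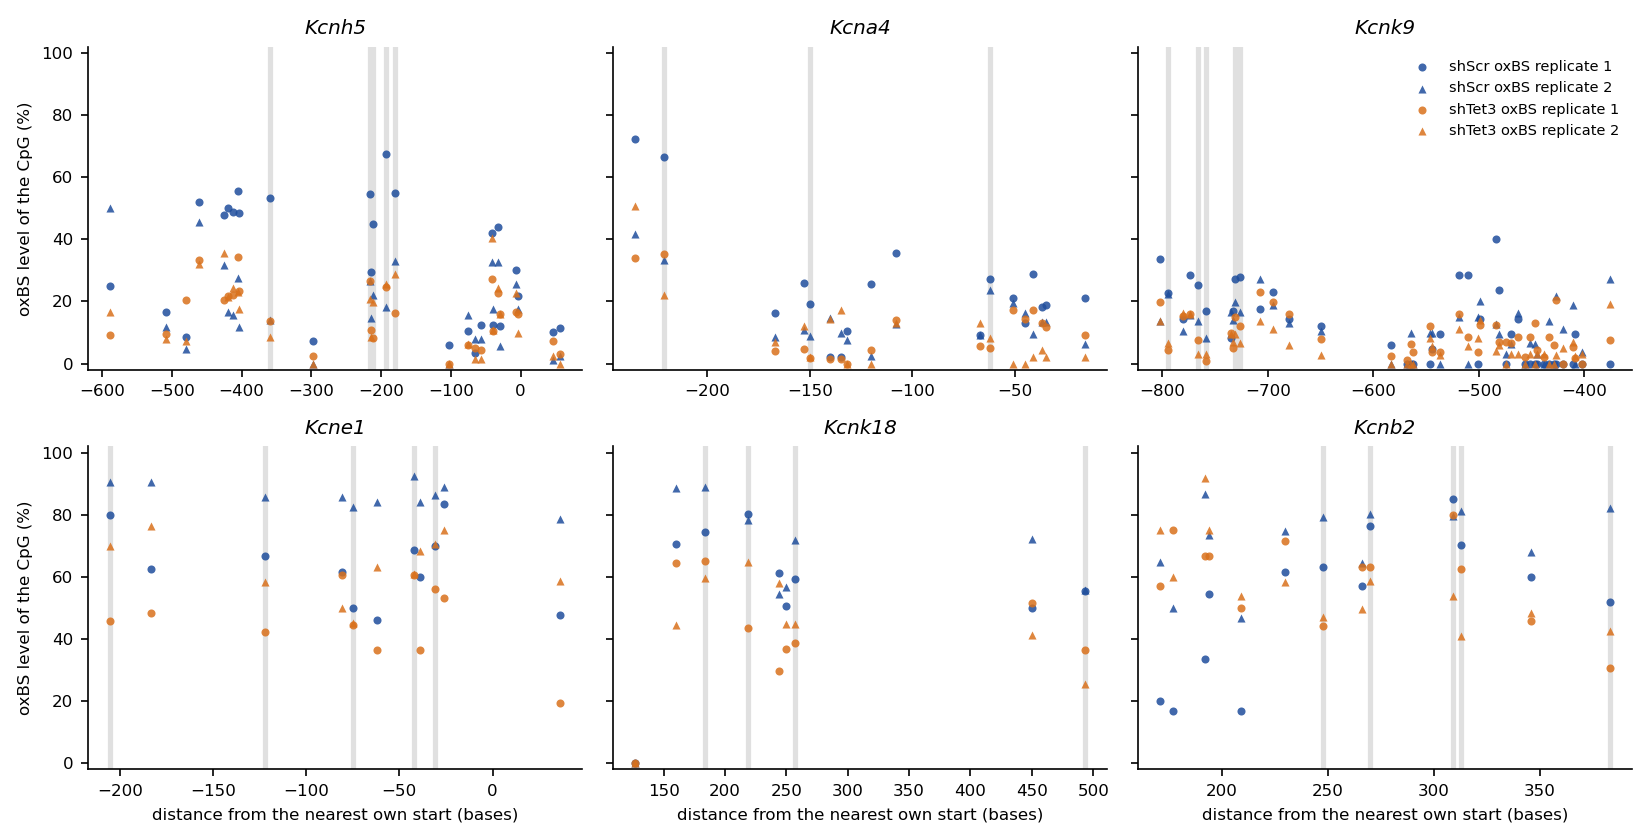
oxBS level (percent) of single CpGs against distance from the nearest transcript start (bases) in 6 Kcn promoters, with 1 point per oxBS library (2 shScr, 2 shTet3; circles replicate 1, triangles replicate 2) and grey bars at hypo-DMPs. In Kcnh5 and Kcna4 shScr replicate 1 stands above the other 3 libraries at the grey bars, whereas in Kcnk18 both shTet3 libraries lie below both controls at most CpGs.

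K2P leak channels had 14 hypo-DMPs in 301 promoter CpGs (4.65%), and all 14 lay in Kcnk9, Kcnk15 and Kcnk18. Both shTet3 replicates lay below both controls at each of the 14, against 84.9% of the hypo-DMPs of Kcn promoters and 88.2% of those of all promoters. When shScr replicate 2 was left out, Kcnk9 had 7 hypo-DMPs, and Kcnk15 and Kcnk18 had 1 each. Kcnk18, the calcineurin-activated channel of sensory neurons, was the most methylated, at 55.7% and 63.0% in shScr against 40.6% and 42.6% in shTet3 (difference −17.7 ± 3.32 SE, limma adjusted p = 0.60). In BS its levels of 52.5% and 67.0% overlapped with 55.3% and 40.8%. Kcnk9, an acid-sensitive channel expressed from the maternal allele in brain, had 5 hypo-DMPs 726 to 795 bases upstream of its start, at 24.0% and 16.2% against 7.92% and 5.89% (q 1.47e-05 to 0.00160). In the BS libraries the groups overlapped there, with 13.5% and 11.8% against 12% and 9.80%. Over all 43 CpGs of the Kcnk9 promoter, the levels were 11.1% and 10.8% against 8.54% and 5.71%, and a library cannot say which allele a lower level comes from. Kcnk15, a relative of Kcnk9 that gives no current by itself in heterologous cells, had 5 hypo-DMPs in 48 CpGs. At 3 of them, 141 to 163 bases upstream of the start, the levels were 34.7% and 33.3% in shScr against 14.9% and 23.0% in shTet3, and BS gave 29.4% and 37.7% against 14% and 14.5%. These K2P stretches are shown together as the only promoter stretches of this family with 3 or more called CpGs (chr19:59294313-59294405, chr15:72377426-72377514 and chr2:163679215-163679256).
Kcnk18: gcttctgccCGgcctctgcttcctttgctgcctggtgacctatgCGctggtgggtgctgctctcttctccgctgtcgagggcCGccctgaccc
Kcnk9: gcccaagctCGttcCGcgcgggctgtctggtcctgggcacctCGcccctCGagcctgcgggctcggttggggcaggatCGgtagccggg
Kcnk15: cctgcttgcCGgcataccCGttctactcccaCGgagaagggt

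Inward rectifiers had 6 hypo-DMPs in 168 promoter CpGs (3.57%), and calcium- or sodium-activated subunits 4 in 110 (3.64%). Kcnj10, the inward rectifier of astrocytes and other glia, held 3 of them, and its promoter was at 23.6% and 26.9% in shScr against 13.6% and 20.3% in shTet3. Kcnj6, a G protein-gated subunit of neurons, held no DMP in 14 CpGs but had the smallest unadjusted limma p of the Kcn promoters (0.000278, adjusted p = 0.323). Its levels were 18.1% and 18.7% in shScr against 8.71% and 9.18% in shTet3, and in BS 20.3% and 14.1% against 8.40% and 7.79%. Its partner subunit Kcnj3, named here after its values were seen, had 52.1% in shScr replicate 1 and between 21.5% and 23.9% in the other 3 oxBS libraries. The 60 CpGs of the Kcnj4 promoter were unmethylated in all 4 oxBS libraries (0.202% to 0.285%). Kcnmb4, the neuronal beta subunit of the large-conductance calcium-activated channel, had 1 hypo-DMP in 58 CpGs at 3.95% and 3.13% against 2.78% and 2.57%, and Kcnn2, a small-conductance channel, had none in 55, at 0.910% and 2.19% against 0.820% and 0.927%.

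The BS libraries, made from the same DNA, gave a further reading of these promoters. Of the 73 promoter hypo-DMPs, 71 were covered in BS, 67 of these (94.4%) were lower in shTet3, and 20 (28.2%) were hypo-DMPs there too. Over all promoters these shares were 91.7% and 37.5%. On their own the BS libraries gave 55 hypo-DMPs in 1764 Kcn promoter CpGs (3.12%), against 1.87% of all promoter CpGs. They gave 2 hyper-DMPs (0.113%), in Kcng3 and Kcnk9, against 0.0389% of all.

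In gene bodies, hypo-DMPs were more frequent. They were found in 61 of the 73 potassium channel genes with covered body CpGs. Among bodies with at least 3 covered CpGs, 86.8% held one, against 77.6% of all such bodies. Hypo-DMPs were 434 of 1693 covered body CpGs (25.6%), against 21.8% of all body CpGs. Only 3 CpGs (0.177%) were hyper-DMPs, against 0.140% of all. The mean oxBS level was 43.2% and 51.3% in shScr against 35.4% and 33.9% in shTet3, so that both shTet3 libraries lay below both controls (47.3% ± 5.72 against 34.6% ± 1.03, SD, n = 2 and 2, two-sided exact permutation p = 0.33). The mean difference of −12.6 percentage points compares with −10.4 over all bodies. Both shTet3 replicates lay below both controls at 405 of the 434 hypo-DMPs (93.3%, against 92.0% of all body hypo-DMPs).

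The count of body hypo-DMPs was lower without shScr replicate 2, the library that stood apart, but also without shTet3 replicate 1. It was 212 of 1722 CpGs without shScr replicate 2 (12.3%, against 8.81% of all body CpGs) and 287 without shTet3 replicate 1. The promoter count of 73 fell to 40 without shTet3 replicate 1. Shares over all genes without shTet3 replicate 1 are not given here, so these 2 counts have no background beside them. Leaving out a library also takes away reads, and the effect of that on these counts was not tested. With overdispersion the F test called 0 of the 1693 body CpGs (smallest q 0.989), with 71 lower at an unadjusted p below 0.05 (4.19%, against 3.04% of all body CpGs). As in promoters, it has too few degrees of freedom for its 0 calls to say much.

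All 68 Kcn bodies with at least 3 covered CpGs had a lower mean level in shTet3, as had 94.7% of all bodies, although the differences ranged from −30.3 to −0.01 percentage points. The median difference was −15.5 in Kcn bodies and −12.4 over all 10800 bodies. In 58 of them (85.3%) both shTet3 replicates lay below both controls, against 72.2% of all bodies, and in 10 the groups overlapped. In 0 did both shTet3 replicates lie above both controls, against 0.796% of all bodies. The shTet3 mean was below shScr replicate 1 alone in 60 of the 68 (88.2%), against 83.9% of all bodies. At least 1 hypo-DMP was found in 59 bodies (86.8%, against 77.6% of all bodies) and 3 or more in 46 (67.6%, against 49.5%), while 9 held none (Kcna2, Kcnab1, Kcng2, Kcnh6, Kcnip4, Kcnj14, Kcnk5, Kcnk12 and Kcnv1). When shScr replicate 2 was left out, 85.3% of these bodies held at least 1 and 50.0% held 3 or more, against 55.2% and 23.6% of all bodies. limma called 0 of the 68 bodies at an adjusted p below 0.05, as it called 0% of all bodies, and the smallest adjusted p was 0.186. At an unadjusted p below 0.05 it found 27 of the 68 lower (39.7%), against 26.4% of all bodies.

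**Figure D3:**
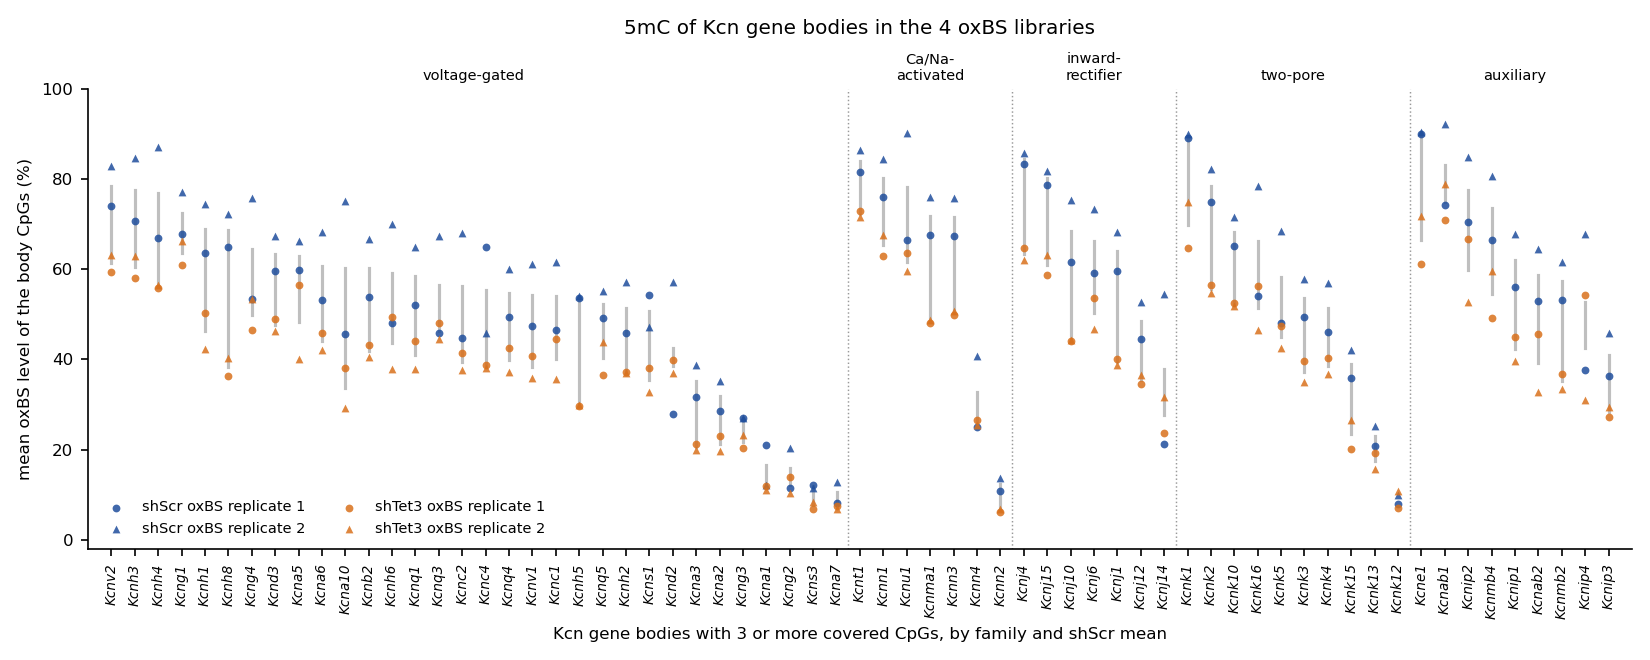
Mean oxBS level (percent) of Kcn gene bodies with at least 3 covered CpGs in each of the 2 shScr and 2 shTet3 libraries. Points are libraries, grey bars join the means of the groups, all 65 bodies shown (3 genes are left out) have a lower shTet3 mean, and in 55 both shTet3 points lie below both shScr points.

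Grouped by their level in the shScr BS libraries, Kcn body CpGs were hypo-DMPs in 0.765% of cases below 10%, 15.3% from 10% to 40%, 35.7% from 40% to 70%, and 44.1% from 70% upwards. Over all bodies the shares were 0.307%, 10.1%, 33.0% and 37.3%, so the Kcn share was the higher in each class. Without shScr replicate 2 they were 1.02%, 13.5%, 16.0% and 20.1% in Kcn bodies, against 0.484%, 6.51%, 11.8% and 14.9% over all bodies. These shares were not tested against each other.

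Among the bodies with at least 5 covered CpGs and a BS level over 40% in shScr, the largest differences were found in several families. Kcnh8 had the largest, from 64.8% and 72.3% in shScr to 36.2% and 40.3% in shTet3 over 5 CpGs (−30.3 ± 3.96 SE, limma adjusted p = 0.186). In BS its controls stood at 53.7% and 68.9% and shTet3 at 48.8% and 36.5%. Of the other ether-à-go-go genes, Kcnh5, already named for its promoter, had 53.5% and 54.1% against 29.6% and 29.9%, with 10 hypo-DMPs in 14 CpGs. Its replicates lay close together (SD 0.377 in shScr and 0.238 in shTet3, n = 2 each), and its unadjusted limma p of 0.00104 was the smallest of the Kcn bodies (adjusted p = 0.186). Kcnh1, a near relative, had 20 hypo-DMPs in 44 CpGs, at 63.6% and 74.4% against 50.2% and 42.2%.

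Calcium-activated channels and their partners were also among these. Kcnma1, the pore of the large-conductance channel, stood at 67.5% and 76.0% in shScr against 48.0% and 48.8% in shTet3, with 9 hypo-DMPs in 16 CpGs. Its beta subunit Kcnmb2 stood at 53.2% and 61.5% against 36.8% and 33.4%. Kcnn3, a small-conductance channel, had 16 hypo-DMPs in 29 CpGs, at 67.3% and 75.8% against 49.7% and 50.7%. In all 3 bodies the gap between the groups was wider than that between replicates.

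Kcnj10 and Kcnk2, channels that hold the resting potential, completed the bodies with the largest differences. Kcnj10 stood at 61.6% and 75.3% in shScr against 44.0% and 44.2% in shTet3, with 8 hypo-DMPs in 17 CpGs. Kcnk2, a mechanosensitive leak channel, stood at 74.8% and 82.3% against 56.4% and 54.8%, with 14 hypo-DMPs in 21 CpGs. Both kept their direction in BS, with differences of −16.1 and −18.3 percentage points. Fewer hypo-DMPs were called in most of these bodies without shScr replicate 2, with 8 in Kcnh5, 9 in Kcnh1, 3 in Kcnma1, 8 in Kcnn3, 2 in Kcnj10 and 5 in Kcnk2.

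Kcng1, Kcnj14 and Kcnq3 were among the bodies with the smallest differences by the same rule. Kcng1, a silent modifier subunit, stood at 67.9% and 77.0% in shScr against 60.8% and 66.2% in shTet3. Kcnj14 had 21.2% and 54.4% against 23.6% and 31.6%, so the groups overlapped, as they did in Kcnq3, a subunit of the M-current, at 45.8% and 67.4% against 48.1% and 44.4%.

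Kcnk12, a K2P subunit that gives little current alone, had the most covered CpGs of all Kcn bodies, 108, and none was a hypo-DMP. Its levels were 7.88% and 9.90% in shScr against 6.96% and 10.8% in shTet3. One of its CpGs in a coding exon (chr17:88145616) was a hyper-DMP, at 5.34% and 14.1% against 15.7% and 30.4%, and shTet3 replicate 1 was only slightly above shScr replicate 2. Another body hyper-DMP was in Kcnab2 (chr4:151851031, 8.11% and 2.22% against 30.9% and 6.45%), where shTet3 replicate 1 was the high library. The body of Kcnab2 as a whole, with 13 hypo-DMPs in 33 CpGs, stood at 52.9% and 64.4% against 45.6% and 32.9%, and held 2 hypo-DMPs without shScr replicate 2.

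Runs of neighbouring hypo-DMPs were found in coding exons of Kcns1 (a silent modifier subunit), Kcnj4 (an inward rectifier of forebrain neurons) and Kcnn1 (a small-conductance channel). In Kcns1, 7 hypo-DMPs within a stretch of 105 bases averaged 92.2% and 92.7% in shScr against 62.4% and 64.0% in shTet3, with 83.4% and 87.4% against 73.3% and 68.9% in BS. In Kcnj4, whose promoter was unmethylated, 7 averaged 84.1% and 95.4% against 62.1% and 71.0%. In Kcnn1, 6 averaged 83.5% and 89.4% against 68.9% and 70.3%. Each shTet3 replicate lay below both controls in all 3 stretches. CpGs of one stretch can share reads, so the number called in it does not count separate observations. Calls without shScr replicate 2 remained at 2 of the 7 in Kcns1, 0 of the 7 in Kcnj4 and 4 of the 6 in Kcnn1. Runs had at least 5 called CpGs with gaps of at most 100 bases, and only the largest of each gene was considered. Runs with CpGs of untranslated exons, among others, were left out, so the place in coding exons partly follows from the choice. These 3 are shown as those with most called CpGs (chr2:163990377-163990481, chr15:79315755-79315921 and chr8:73376861-73376957).
Kcns1: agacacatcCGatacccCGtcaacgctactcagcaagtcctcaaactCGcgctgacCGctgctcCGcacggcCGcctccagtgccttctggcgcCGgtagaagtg
Kcnj4: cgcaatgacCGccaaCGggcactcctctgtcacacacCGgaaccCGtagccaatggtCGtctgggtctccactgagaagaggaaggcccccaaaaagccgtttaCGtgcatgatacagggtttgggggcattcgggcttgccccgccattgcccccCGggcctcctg
Kcnn1: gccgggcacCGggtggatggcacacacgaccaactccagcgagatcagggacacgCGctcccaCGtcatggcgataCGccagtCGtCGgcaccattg

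By family, the share of hypo-DMPs in bodies was 36.0% in auxiliary subunits (55 of 153 CpGs), 31.3% in calcium- or sodium-activated subunits (50 of 160), 30.3% in inward rectifiers (47 of 155), 25.2% in voltage-gated subunits (234 of 927) and 16.1% in K2P channels (48 of 298). The mean shScr level was 61.1% ± 8.26 in auxiliary subunits, 51.0% ± 6.70 in calcium- or sodium-activated subunits, 64.2% ± 9.01 in inward rectifiers, 46.5% ± 5.13 in voltage-gated subunits and 31.7% ± 3.99 in K2P channels (SD, n = 2), of which Kcnk12 alone gave 108 CpGs. Over pooled CpGs K2P channels had both the lowest level and the lowest share, but the other families did not keep one order in both. Kcnk12, with no hypo-DMP, weighs on both K2P values. By body, the median shScr level was 56.0% in the 10 K2P bodies with at least 3 covered CpGs, with a median difference of −15.2 percentage points. In the 35 voltage-gated bodies these were 55.3% and −15.0, so by body K2P channels were not the lowest. In shTet3 the means were 42.7% ± 2.03 in auxiliary subunits and 24.1% ± 0.125 in K2P channels. The order of the families changed without shScr replicate 2, where the pooled shares were 13.3%, 13.0%, 10.3%, 14.1% and 7.17% in the same sequence, and K2P channels alone kept their place.

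Within bodies, introns had 246 hypo-DMPs in 784 CpGs (31.4%), coding exons 164 in 778 (21.1%), and untranslated exons 24 in 131 (18.3%). These shares were 12.7%, 12.3% and 9.85% without shScr replicate 2. Intron CpGs averaged 48.9% and 59.2% in shScr against 40.4% and 37.4% in shTet3, and coding exons 41.1% and 47.7% against 33.4% and 33.5%. Along the genes, levels were higher with distance from the start. From 0.25 kb upstream to the start Kcn genes averaged 10% and 10% in shScr, against 7.08% and 7.32% in shTet3, whereas all genes averaged 3.16% and 3.74% in shScr there. From 2 kb to 5 kb after the start Kcn genes averaged 50.0% and 59.0% against 40.5% and 40%. Beyond 100 kb, where 11 long Kcn genes had CpGs, they averaged 60.4% and 70.6% against 47.8% and 43.8%.

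**Figure D4:**
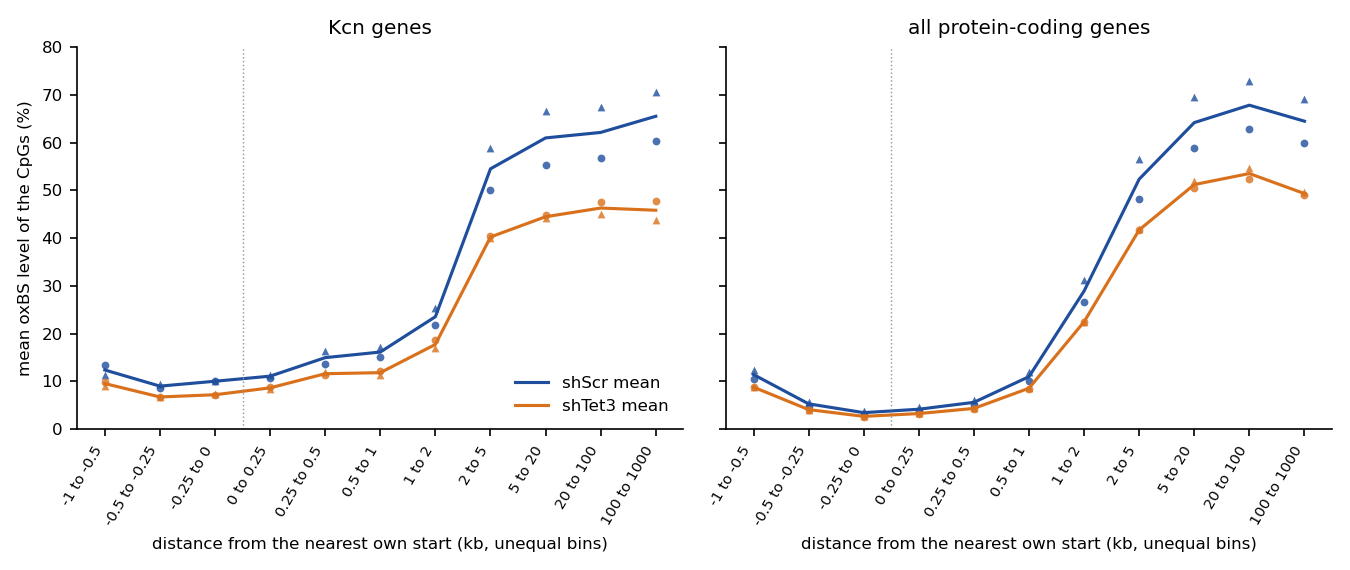
Mean oxBS level (percent) of CpGs by distance from the nearest transcript start, for Kcn genes and for all protein-coding genes, in bins of unequal width. Points are oxBS libraries (circles replicate 1, triangles replicate 2) and lines the mean of the 2 shScr or 2 shTet3 libraries. Kcn genes lie above all genes from 0.5 kb before to 1 kb after the start. They lie below all genes from 1 kb to 2 kb and from 5 kb to 100 kb. Both shTet3 points lie below both shScr points in every bin.

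In the BS libraries 409 of 1642 Kcn body CpGs were hypo-DMPs (24.9%), against 22.2% of all body CpGs, and 0 were hyper-DMPs, against 0.0971% of all. The 0 comes from the logistic regression, and the F test likewise gave no body CpG higher at an unadjusted p below 0.05. Of the 434 oxBS hypo-DMPs, 410 were covered in BS, 392 of these (95.6%) were lower in shTet3 and 198 (48.3%) were hypo-DMPs there too. Over all bodies these shares were 96.3% and 49.4%.

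Kcnq1, which encodes the pore of the slow delayed rectifier, also holds in an intron the start of Kcnq1ot1, an antisense noncoding RNA transcribed from the paternal allele whose start lies in an imprinted control region. Its body had 27 hypo-DMPs in 70 CpGs and stood at 52.0% and 64.9% in shScr against 44.2% and 37.8% in shTet3. The 11 covered CpGs within 2 kb of the Kcnq1ot1 start lay 930 to 1078 bases from it and had a coverage of 41 to 94. They stood at 33.8% and 36.5% in shScr against 23.6% and 19.3% in shTet3, with 7 hypo-DMPs, and in BS at 30.4% and 39.3% against 11.5% and 22.4%, with 5. The 7 oxBS hypo-DMPs lie close together, share reads and are not independent of each other. Of these 7, 2 were called without shScr replicate 2, when the whole body held 8. Over the other 59 CpGs of the body the levels were 55.4% and 70.1% against 48.0% and 41.2%. Near the Kcnq1ot1 start the control replicates lay close together (SD 1.92, n = 2), and both shTet3 replicates lay below them. The promoter of Kcnq1 held no DMP in 36 CpGs, and its groups overlapped (10.5% and 15.1% against 7.14% and 11.7%). The stretch is shown for its place next to the Kcnq1ot1 start, with the 7 hypo-DMPs in capitals (chr7:150481365-150481532).
Kcnq1: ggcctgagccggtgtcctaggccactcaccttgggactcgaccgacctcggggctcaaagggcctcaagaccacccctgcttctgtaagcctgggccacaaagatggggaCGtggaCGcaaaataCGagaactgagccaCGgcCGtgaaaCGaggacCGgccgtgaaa

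BS against oxBS within each shRNA asked where 5hmC could be seen. In shScr promoters, 1 of 1560 CpGs had BS above oxBS (0.0641%, against 0.0841% of all promoter CpGs) and 1 had BS below oxBS (0.0641%, against 0.0431%). In shScr bodies, 6 of 1560 CpGs had BS above oxBS (0.385%, against 0.545% of all body CpGs) and 3 had BS below (0.192%, against 0.268%). A value below oxBS cannot come from 5hmC, so the calls below give the rate of error. In shTet3, 0 of 1853 promoter CpGs had BS above oxBS (0.00918% of all) and 1 had BS below (0.0540%, against 0.00214%). In shTet3 bodies, 1 of 1739 had BS above (0.0575%, against 0.0311%) and 0 had BS below (0.0268% of all).

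The mean of BS minus oxBS over Kcn bodies was 0.488 ± 0.399 percentage points in shScr and 0.749 ± 0.223 in shTet3, and over promoters 0.192 ± 0.324 and 0.398 ± 0.0236 (SD, n = 2). Both shTet3 replicates were above 0 in promoters (0.381 and 0.414) and in bodies (0.591 and 0.907), and in shScr promoters replicate 2 was at −0.04. limma with the DNA sample as block called 0 Kcn regions for BS minus oxBS in either shRNA or for its difference between them. At an unadjusted p below 0.05 there were 8 promoters and 5 bodies in shScr, 6 and 6 in shTet3, and 8 and 5 for the difference, of 63 promoters and 66 bodies. For promoters these were 12.7%, 9.52% and 12.7%, against 5.25%, 4.08% and 4.38% of all promoters, and for bodies 7.58%, 9.09% and 7.58%, against 5.25%, 6.76% and 5.41% of all bodies. Both directions are counted, and limma called 0% of all promoters and bodies in each of these comparisons.

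The one cluster was in the body of Kcnk15, where 3 of the 6 body calls lay within 19 bases of a coding exon, 4599 to 4617 bases after the start. At the first (chr2:163684068) oxBS read 26.4% (Wilson 95% interval 18.4% to 36.3%) and 29.5% (18.2% to 44.2%) in shScr, and BS read 65.3% (54.1% to 75.1%) and 52.2% (38.1% to 65.9%), a pooled difference of 32.9 points (q = 0.000180). At the second (chr2:163684083) oxBS read 23.1% and 41.5% and BS 57.3% and 50.0%. At the third (chr2:163684086) oxBS read 12.1% and 26.8% and BS 53.3% and 17.4%, so only replicate 1 was higher in BS. In shTet3 the pooled differences at the same 3 CpGs were 13.6, 12.1 and 8.31 points (q 0.284 to 0.644). The 3 CpGs share reads and are not independent of each other. Their sequence is shown as the only run of calls for BS above oxBS in the Kcn genes (chr2:163684059-163684096).
Kcnk15: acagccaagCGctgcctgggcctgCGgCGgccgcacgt

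The other CpGs with BS above oxBS in shScr were single ones in the bodies of Kcna1, Kcnc1 and Kcnj14 and in the promoter of Kcnk6. In Kcna1, the founding voltage-gated gene, only BS replicate 1 was high (67.4% and 28.7% in BS against 33.1% and 22.3% in oxBS). In Kcnc1 both BS libraries lay above both oxBS libraries (60.7% and 79.5% against 43.4% and 54.6%). In Kcnj14 the low value was that of 1 oxBS library (66.0% and 41.7% against 9.52% and 45.0%). Calls in the opposite direction included CpGs in the bodies of Kcnip1 and Kcnh8 and in the promoter of Kcnk9. The difference of −25.4 points in Kcnh8 was close in size to that of 25.8 points at the second Kcnk15 CpG. In shTet3 the call above was in the body and the call below in the promoter of Kcng1.

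**Figure D5:**
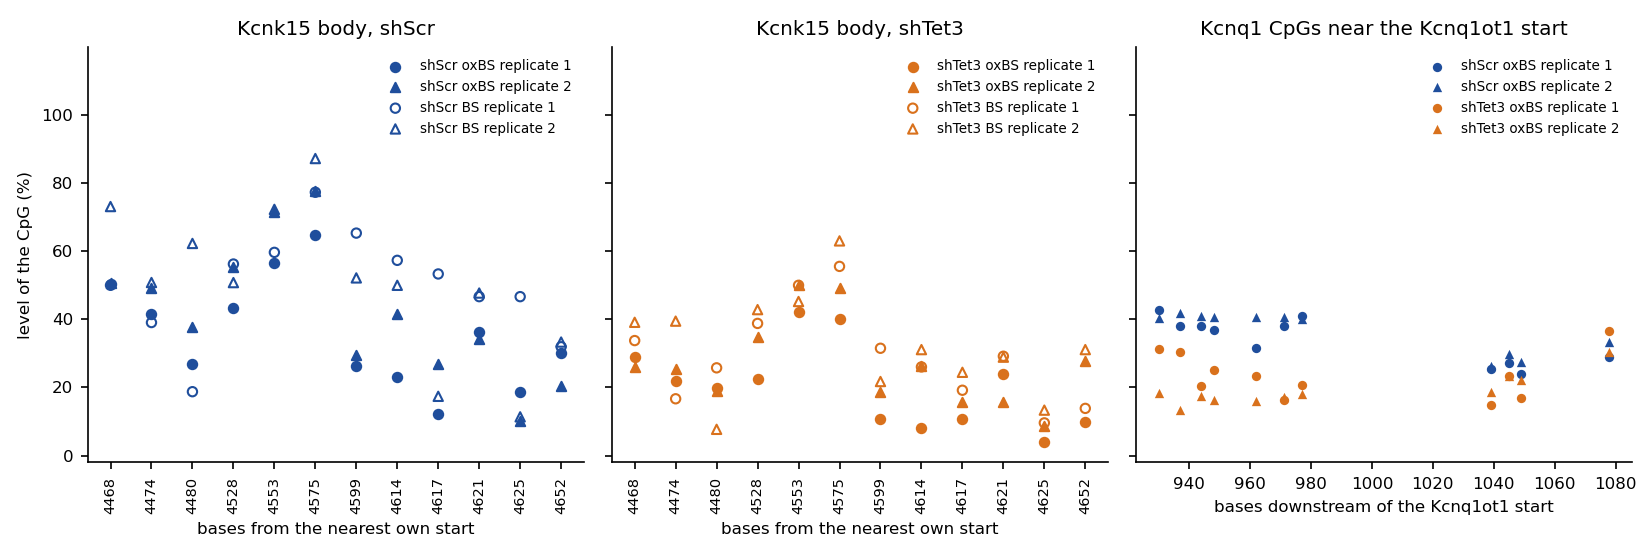
Level (percent) of single CpGs in the called part of the Kcnk15 body and near the start of Kcnq1ot1 in Kcnq1, against distance (bases; the Kcnk15 CpGs are evenly spaced), with filled points for oxBS, open points for BS (Kcnk15 only), circles for replicate 1 and triangles for replicate 2. In Kcnk15 both open shScr points lie well above both filled ones at 4599 bases, and in Kcnq1 the shTet3 means of 23.6% and 19.3% lie below the shScr means of 33.8% and 36.5%.

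Other channel genes were counted in the same way. Partners of potassium channels outside the Kcn symbols (sulphonylurea receptors, dipeptidyl peptidase-like subunits, leucine-rich subunits and the cyclic nucleotide-gated Hcn genes) had hypo-DMPs in 12 of 254 promoter CpGs (4.72%) and 52 of 210 body CpGs (24.8%). Voltage-gated calcium channel genes had 8 of 560 (1.43%) and 338 of 1150 (29.4%), and voltage-gated sodium channel genes 5 of 116 (4.31%) and 106 of 257 (41.3%). The share in Kcn promoters, 4.46%, was thus near that of their partners and of sodium channel genes and above that of calcium channel genes, while in bodies the Kcn share of 25.6% was below that of both calcium and sodium channel genes. Without shScr replicate 2 the body shares were 12.3% in Kcn genes, 11.7% in their partners, 9.87% in calcium channel genes and 14.3% in sodium channel genes, and the promoter shares 4.19%, 2.75%, 2.28% and 1.68%. The differences between these lists were not tested.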

How the data were processed

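oxRRBS libraries of NPCs (2 shScr and 2 shTet3 replicates, each as BS and oxBS) were re-analysed. Samples were grouped by the shRNA and kind of library in their labels. The authors trimmed reads with Trim Galore, aligned them with Bismark to mm9, and deposited 2 kinds of value for each CpG, the coverage (an unnormalized count of calls) and the percent of those calls that were C or T. Versions were not given in the sources used here. Methylated counts were recovered as coverage times percent, and every file had a minimum coverage of 5 already, so CpGs with fewer calls were not analysed here. The depth was 42516767 to 61865967 calls per library.

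CpGs with 10 or more calls in every library of a comparison were tested on all chromosomes by logistic regression of counts on the shRNA (likelihood ratio test without overdispersion, Benjamini-Hochberg, q below 0.01, difference over 10 percentage points). The authors used methylKit, whose own adjustment of p-values may differ. Region means (3 or more CpGs) were tested with limma 3.58.1 in R 4.3.3 over all protein-coding autosomal genes, promoters and bodies apart, and other steps used Python 3.11.15 with numpy 2.4.6, scipy 1.17.1 and pandas 2.3.3. Both tests were checked on simulated data. Promoters of a gene's transcripts were pooled. BS and oxBS libraries of one number and shRNA come from one DNA sample, but a number common to shScr and shTet3 is not explained by the labels. The Kcnq1ot1 start was placed by matching the RefSeq promoter sequence to mm9.

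The members and the gene lists were chosen with earlier results of these data known. Genes named were promoters with 3 or more hypo-DMPs, genes with a hyper-DMP, the 8 largest and 4 smallest differences among 44 methylated bodies, the 5 most methylated promoters, Kcnq1 and Kcnk9, and the genes with most covered CpGs per family and in all, besides those named as parts of a small count. Values of 3 genes under this rule or these counts are not reported here one by one, and the counts over all genes include them. Alternatives were other coverage minimums (5, 20), Fisher's exact test, an F test with overdispersion, the replicate block, counting only DMPs at which the groups do not overlap, wider promoters (2 kb before to 1 kb after), other region minimums (1, 5), read-weighted and logit levels, bodies without any promoter, and leaving out each replicate. Expression was not analysed here.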

Additional observations from a re-analysis of the deposited data

How the results depend on the processing

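The mean oxBS difference over Kcn promoters and over Kcn bodies stayed negative under every alternative tried (without 1 replicate −2.85 to −2.47 and −16.5 to −8.55 percentage points), and limma called 0 Kcn promoters and 0 Kcn bodies under each. The per-CpG counts were less stable. With the F test all of them were 0. That test takes in the spread between replicates, but with 2 libraries a group it has few degrees of freedom. A q below 0.01 was hardly within its reach, so these 0 counts cannot show that the spread removes the calls. Wider promoters gave 120 promoter hypo-DMPs, 3 promoter hyper-DMPs and 1 body hyper-DMP, since they take in CpGs counted as body. Fisher's exact test gave 1 body hyper-DMP, and counting only DMPs whose groups do not overlap left 0 promoter hyper-DMPs. A coverage minimum of 20 gave 3 shScr promoter CpGs with BS above oxBS and a mean BS minus oxBS of 0.449 points in shTet3 promoters, and the cause was not tested.

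Leaving out 1 replicate at a time gave 40 to 82 promoter and 212 to 508 body hypo-DMPs in oxBS, and 33 to 76 and 159 to 480 in BS. Hyper-DMPs ranged from 0 to 4 in promoters and 2 to 9 in bodies (oxBS), and from 1 to 5 and 0 to 7 (BS). In BS the body count was lowest without shScr replicate 2 (159) and was 265 and 254 without shTet3 replicate 1 and 2. CpGs with BS above oxBS in shScr ranged from 0 to 9 in promoters and 0 to 26 in bodies, and those below from 0 to 7 and 0 to 16, with 0 of each kind without replicate 1. In shTet3 these ranged from 0 to 2 and 0 to 4 above, and 0 to 2 and 0 to 2 below. The number of Kcn regions lower at an unadjusted limma p below 0.05 ranged from 5 to 18 promoters and 6 to 46 bodies, with 0 and 16 on the logit scale and 11 promoters with read-weighted levels.

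A replicate block between same-numbered libraries gave 78 promoter and 434 body hypo-DMPs and 2 body hyper-DMPs in oxBS, and 56 promoter and 406 body hypo-DMPs and 1 body hyper-DMP in BS. With the block for shared DNA, BS against oxBS gave 2 promoter and 9 body CpGs above and 5 body CpGs below in shScr, and 0 promoter CpGs below in shTet3. The other counts of called CpGs and of limma calls were the same with and without the block.

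Of 272 recomputed differences of the 34 promoters and bodies under the rule for named genes, 236 moved by less than the spread between replicates, and 11 changed sign, in the promoters of Kcnb2 and Kcnj4 and the bodies of Kcnk12, Kcnj14 and Kcnq3. With 2 replicates a group, no comparison of mean levels could pass an exact test.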
